A study of Homo sapiens with 8 samples.

Results

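UNC5 receptors, their netrin ligands and the DCC family were followed in HEK293T cells treated with DZNep, as 10 genes of the 57500 in the deposited count table. UNC5A was selected on its decrease in these same libraries, being one of the strongest, so its difference between the groups is given as a description without a test. The other 9 genes, UNC5B, UNC5C, UNC5D, DCC, NEO1, DSCAM, NTN1, NTN3 and NTN4, were listed with it as relatives or partners. HEK293T cells come from human embryonic kidney and express SV40 large T antigen. DZNep, or 3-deazaneplanocin A, resembles adenosine and blocks S-adenosylhomocysteine hydrolase, the enzyme that clears the by-product of methylation reactions. The RNAseq data comprised 4 libraries of cells given 100 µM DZNep for 48 h and 4 libraries of cells given vehicle (Control), with the same cell line in both groups and replicates numbered 1 to 4 in each. The sample labels name DMEM as the medium and the methods name RPMI.

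Netrins are secreted, laminin-related proteins that steer growing axons and migrating cells. DCC and its relative neogenin (NEO1) are netrin receptors that mostly mediate attraction, while the UNC5 receptors mediate repulsion, alone or together with DCC, and DSCAM is an adhesion molecule that can also bind netrin. UNC5 receptors and DCC are also known as dependence receptors, which favour cell death when their ligand is missing, and they act in many tissues outside the nervous system.

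Of the 10 genes, 7 passed the filter on low counts. Between DZNep and Control, 1 of them was called higher (NTN3) and 1 lower (UNC5A, as its selection fixed), where a call needs an adjusted p under 0.05 and a log2 fold change beyond 1 in size, that is, more than 2-fold. Among all 19171 genes tested, 10.6% were called higher and 13.5% lower, and at an adjusted p under 0.05 with any fold change 19.1% were higher and 21.8% lower. All 4 DZNep libraries lay below all 4 Control libraries for UNC5A and UNC5B, as for 19.4% of genes tested, and lay above them for 0 of the 7, against 19.5%. UNC5B and NTN4 were lower with smaller fold changes, and UNC5C, NEO1 and NTN1 did not pass the test. In a fit blocked by replicate number, the adjusted p of UNC5C was 0.0214, with a change short of 2-fold. UNC5D, DCC and DSCAM had too few reads to be tested.

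The libraries held between 25043058 and 44902779 counts, and Control replicate 1 was the shallowest. The mitochondrial share of a library's reads ran from 3.02% to 13.7% in Control and from 4.25% to 10.1% in DZNep, with the higher shares in replicates 1 and 4 of both groups. All 10 genes listed as expressed in HEK293 cells passed the filter, with a summed level of 2063 to 2681 CPM in Control and 2365 to 2797 CPM in DZNep. Summed glial markers stood at 4.39 to 10.1 CPM in Control and 13.3 to 17.0 CPM in DZNep, and summed neuronal markers at 37.0 to 52.3 and 41.4 to 51.4 CPM. The part of these differences in the results below was not tested. Normalized counts below are the deposited counts divided by a size factor for each library.

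**Figure D1:**
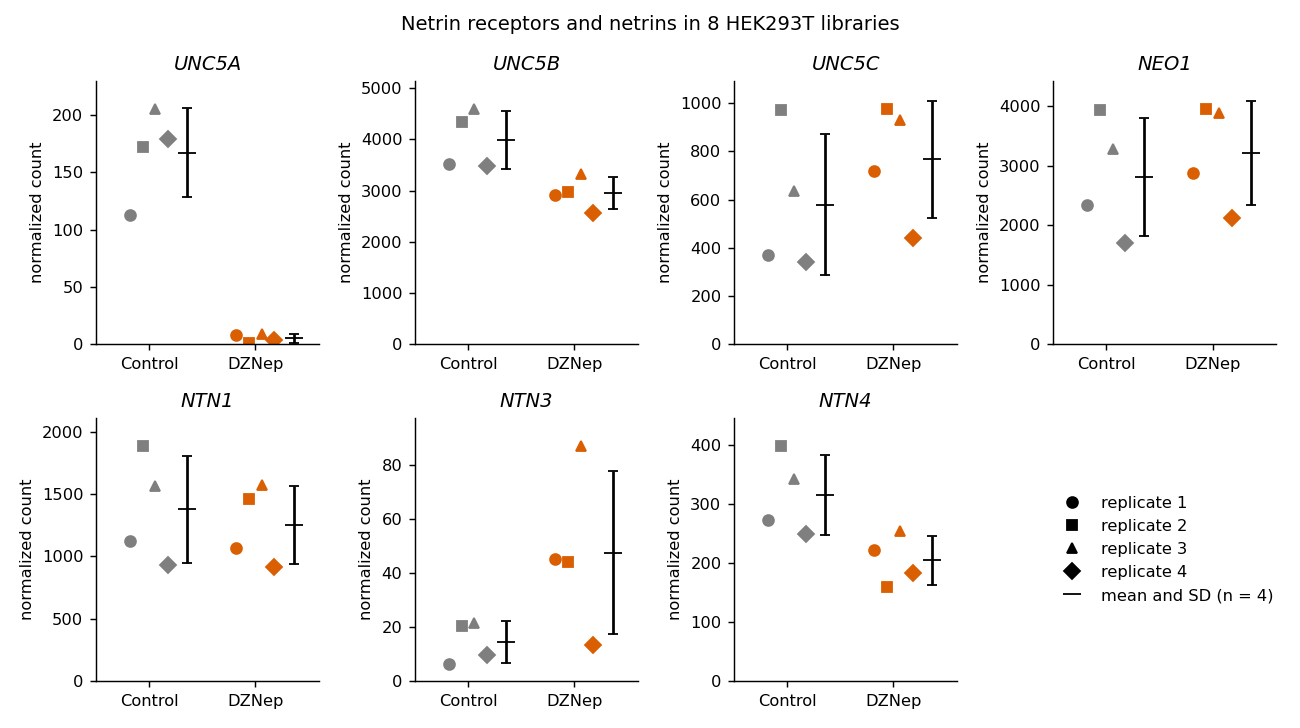
Normalized counts (vertical axes, each from 0) of the 7 genes that passed the filter, in the 4 Control (grey) and 4 DZNep (orange) libraries, with symbols for the replicate numbers and bars for mean and SD. The DZNep values of UNC5A lie between 0.805 and 8.64 and its Control values between 113 and 205, while for UNC5C, NEO1, NTN1, NTN3 and NTN4 the groups overlap.

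UNC5A (ENSG00000113763), a receptor with immunoglobulin and thrombospondin repeats outside the cell and a death domain inside, lies on the plus strand of chromosome 5 (chr5:176810519-176880898, GRCh38). Its normalized counts were 113, 172, 205 and 179 in Control replicates 1 to 4, and 8.16, 0.805, 8.64 and 3.38 in DZNep replicates 1 to 4. Every DZNep library lay far below every Control library, with a wide gap between the highest DZNep and the lowest Control value. The reads behind these values were 73 to 229 in a Control library and 1 to 10 in a DZNep library, so the DZNep level rests on few reads.

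The mean normalized count of UNC5A was 167 ± 39.2 (SD, n = 4) in Control and 5.25 ± 3.80 (SD, n = 4) in DZNep, which left 3.13% of the Control mean. The fitted log2 fold change was -4.99 (SE 0.48), or 31.8-fold lower. Between libraries of the same number, the log2 ratio of normalized counts with 1 added was -3.63, -6.59, -4.42 and -5.37 for replicates 1 to 4, lower in 4 of 4. Ordered by fold change from the lowest, UNC5A was in position 12 of all 19171 genes tested. It was in position 3 of the 1503 named genes called lower whose log2 CPM averaged 1 or more and whose groups did not overlap. In bulk RNA, fewer cells that express a gene and less RNA of it per cell cannot be told apart.

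The RefSeq promoters of UNC5A and UNC5C are shown, the only UNC5 receptors with a promoter entry, as UNC5B and UNC5D had none. UNC5A had the largest decrease of the tested UNC5 receptors, while UNC5C did not pass the test in the main fit. Each window runs from 250 bases before to 50 bases after the annotated start (GRCh38.p14, written 5′ to 3′ on the gene's strand), and capitals mark each CG, the dinucleotide at which human DNA is methylated, which reads the same on both strands. The UNC5A window is chr5:176810309-176810608 on the plus strand and the UNC5C window is chr4:95548924-95549223 on the minus strand. The annotated starts are those of RefSeq and differ from the starts of the GENCODE gene coordinates given for both genes. Most of the UNC5C window lies inside its GENCODE gene, so the windows are placed differently against those coordinates.
UNC5A: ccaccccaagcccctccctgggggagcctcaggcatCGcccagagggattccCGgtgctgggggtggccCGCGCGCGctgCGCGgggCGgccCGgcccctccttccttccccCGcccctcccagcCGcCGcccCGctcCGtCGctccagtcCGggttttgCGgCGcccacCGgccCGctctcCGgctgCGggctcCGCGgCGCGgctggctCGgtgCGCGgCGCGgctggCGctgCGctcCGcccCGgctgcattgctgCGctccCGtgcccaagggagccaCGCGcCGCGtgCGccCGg
UNC5C: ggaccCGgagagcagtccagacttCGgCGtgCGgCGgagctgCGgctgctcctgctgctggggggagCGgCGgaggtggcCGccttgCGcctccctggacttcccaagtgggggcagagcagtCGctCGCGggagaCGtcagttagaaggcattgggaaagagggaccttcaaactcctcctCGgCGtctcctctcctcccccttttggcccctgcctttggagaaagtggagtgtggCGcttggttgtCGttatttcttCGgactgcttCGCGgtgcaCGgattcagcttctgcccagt
The UNC5A window held 44 CG and was 80.7% G or C, and 4.19% of the 35116 promoters in the table held as many CG or more. The UNC5C window held 22 CG and was 63.7% G or C, and 37.7% of promoters held as many. The median promoter held 14 CG. Of the other genes, DCC, DSCAM, NEO1 and NTN4 had an entry in the table, so that 6 of the 10 genes were matched. NEO1, which did not pass the test, had 35 CG, and NTN4 had 40 and 21 in separate windows. DCC had 15 and DSCAM 17. A relation between CG count and fold change was not tested.

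The hexokinase gene HK3 overlaps the end of UNC5A on the opposite strand by 30 bases. HK3 was below the filter, with 117 reads in DZNep replicate 2 and at most 3 in any other library. DZNep replicate 2 was the library with the single UNC5A read. That library also stood apart for marker genes on other chromosomes, with 559 reads of LYZ against 17 to 25 in the others. Of COL1A2 it had 19 reads, against 1002 to 1816. A link between HK3 and UNC5A was not tested.

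The nearest tested genes on each side of UNC5A had smaller changes, as its selection for a strong decrease made likely. UIMC1, which encodes a ubiquitin-binding DNA repair protein and whose nearer end lies 24.1 kb beyond the end of UNC5A, was higher in all 4 DZNep libraries than in any Control library (log2 fold change 0.57, SE 0.12, adjusted p = 0.00405). Beyond it, ZNF346 gave -0.46 (adjusted p = 0.0693) and its intronic transcript ZNF346-IT1 gave -0.94 (adjusted p = 0.0240). On the other side, 152 to 180 kb away, TSPAN17, EIF4E1B and the synuclein gene SNCB gave log2 fold changes of 0.27, 0.10 and -0.67 and did not pass the test (adjusted p = 0.319, 0.864 and 0.237). Under the replicate block, which fits the libraries as pairs by number, the adjusted p was 0.0498 for TSPAN17, 0.927 for EIF4E1B, 0.00755 for SNCB and 0.00710 for ZNF346, each with a change of less than 2-fold. Within 1000 kb, 1 of 44 other tested genes was called higher and 5 lower, against 10.6% and 13.5% of all genes tested, and the median log2 fold change was -0.017.

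**Figure D2:**
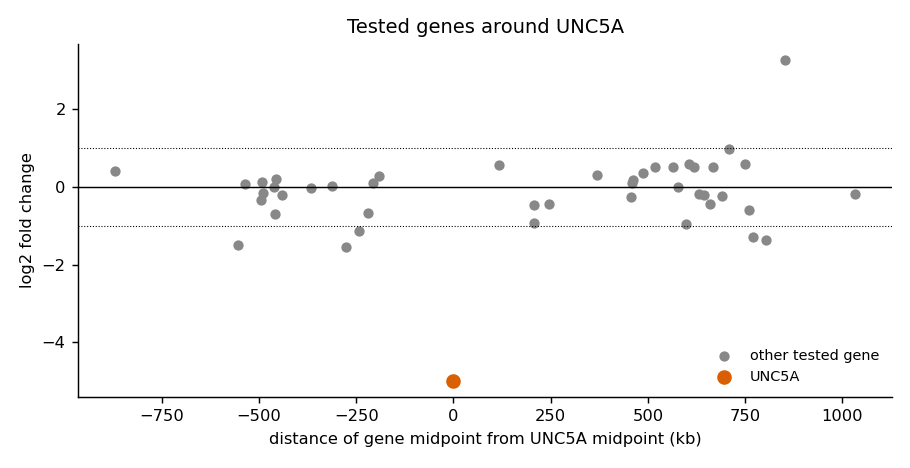
Log2 fold change, DZNep over Control, of each tested gene within 1000 kb of UNC5A (vertical axis) against the distance between gene midpoints in kb (horizontal axis), with dotted lines at -1 and 1. UNC5A lies at -4.99 and its 6 nearest neighbours between -0.94 and 0.57.

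The genes whose pattern was most like that of UNC5A were named by Pearson's r of log2 CPM over the 8 libraries, among 13623 tested genes whose log2 CPM averaged 1 or more. They were CRAT, a carnitine acetyltransferase (r = 0.995), OSBPL5, an oxysterol-binding protein relative (r = 0.993), and CTNNBIP1, an inhibitor of beta-catenin (r = 0.993). All 3 were lower in every DZNep library than in any Control library, and 604 genes had an r above 0.95. All genes share the treatment split and depth of these libraries, so the values describe a pattern over few points.

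UNC5B (ENSG00000107731; chr10:71212570-71302864, plus strand), a receptor known from blood vessels as well as axons, was the most abundant of the family. Its normalized counts were 3518, 4341, 4589 and 3487 in Control and 2918, 2981, 3331 and 2568 in DZNep replicates 1 to 4. All DZNep libraries lay below all Control libraries, though the highest DZNep value came close to the lowest Control value. Means were 3984 ± 565 and 2950 ± 313 (SD, n = 4 each).

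The log2 fold change of UNC5B was -0.46 (SE 0.15, 95% interval -0.80 to -0.12, adjusted p = 0.0341), a decrease of less than 2-fold that was not called. It was lower in 4 of 4 replicate pairs. UNC5B shares such a decrease with the 21.8% of genes given above. The adjusted p was 0.00245 in a fit blocked by replicate number (replicate block), and it rose above 0.05 in 7 of the 14 alternative fits, 5 of which left out 1 library (Control replicate 2 or 3, or DZNep replicate 1, 2 or 4).

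UNC5C (ENSG00000182168; chr4:95162504-95549206, minus strand), a receptor for netrin in migrating neurons, gave 370.0, 970, 634 and 341 normalized counts in Control replicates 1 to 4. In DZNep it gave 718, 975, 931 and 441. Replicates 2 and 3 were the higher libraries in both groups, and the groups overlapped. The log2 fold change was 0.38 (SE 0.35, 95% interval -0.41 to 1.16, adjusted p = 0.424), and all 4 pair ratios were above 0, from 0.007 to 0.955. In a fit blocked by replicate number the change was 0.44 (adjusted p = 0.0214), still short of 2-fold.

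UNC5C-AS1, a long noncoding RNA on the opposite strand, overlaps the start of UNC5C by 78 bases. Its normalized count was 31.9 ± 11.8 in Control and 56.5 ± 27.5 in DZNep (SD, n = 4 each), with overlapping groups (log2 fold change 0.82, adjusted p = 0.148, or 0.0283 under the replicate block). Without strand information in the counting, reads in the shared bases cannot be assigned to one gene. UNC5B-AS1, which overlaps UNC5B, was below the filter at means of 3.23 and 8.08 normalized counts.

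UNC5D (ENSG00000156687), the remaining UNC5 receptor, had 0, 1, 2 and 1 reads in Control and 2, 5, 2 and 2 in DZNep, 4 against 11 in all, below the filter and at a level where no fold is given. The pseudogene LSM12P1 inside it, on the opposite strand, had means of 41.4 and 51.8 normalized counts with overlapping groups.

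The transcripts of the UNC5 family were mostly those of UNC5B and UNC5C in both groups, and almost wholly so in DZNep. As a share of the summed UNC5 level, in CPM per kilobase of exon, UNC5A took 4.53% to 7.12% in a Control library and 0.0354% to 0.381% in a DZNep library. UNC5C took 5.46% to 11.9% and 9.88% to 17.3%, with overlapping ranges. UNC5B took most of the family in every library, 82.9% to 89.4% in Control and 82.6% to 89.9% in DZNep. The summed UNC5 level was 18.0 ± 2.96 CPM per kilobase in Control and 13.2 ± 1.79 in DZNep (SD, n = 4 each). These shares restate the changes of single genes and were not tested.

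NEO1 (ENSG00000067141; chr15:73051710-73305205, plus strand) was the only DCC family receptor with more than a few reads. It gave 2336, 3932, 3277 and 1706 normalized counts in Control and 2879, 3950, 3890 and 2130 in DZNep replicates 1 to 4. The groups overlapped over most of their range, and replicate 4 was the lowest library in both. The log2 fold change was 0.17 (SE 0.28, 95% interval -0.45 to 0.79, adjusted p = 0.669), an interval that holds changes of up to 0.79 upwards and 0.45 downwards.

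DCC (ENSG00000187323; chr18:52340197-53535899), the founding netrin receptor, had 1, 0, 0 and 3 reads in Control and 4, 1, 2 and 0 in DZNep, and no difference was detectable at this depth. DSCAM (ENSG00000171587; chr21:40010999-40847158) had 0 reads in all 8 libraries. A count of 0 allows up to 3 reads, or 0.12 CPM in the shallowest library, a limit that covers counting error only.

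NTN1 (ENSG00000065320; chr17:9021510-9244000, plus strand), the main netrin of the developing nervous system, gave 1125, 1887, 1569 and 930 normalized counts in Control. In DZNep it gave 1068, 1457, 1576 and 917. The groups overlapped, and replicates 2 and 3 stood above 1 and 4 in both. The log2 fold change was -0.16 (SE 0.25, 95% interval -0.72 to 0.40, adjusted p = 0.641), with 3 of 4 pair ratios below 0.

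NTN3 (ENSG00000162068; chr16:2471297-2474145, plus strand), a further secreted netrin, was the least abundant ligand, with 4, 23, 24 and 9 reads in Control and 50, 55, 101 and 12 in DZNep replicates 1 to 4. In normalized counts these were 6.17, 20.5, 21.5 and 9.67 against 45.4, 44.3, 87.2 and 13.5. DZNep replicates 1 to 3 lay above all Control libraries, while DZNep replicate 4 lay below Control replicates 2 and 3, so the groups overlapped.

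NTN3 rose, with mean normalized counts of 14.5 ± 7.71 in Control and 47.6 ± 30.3 in DZNep (SD, n = 4 each) and a fitted log2 fold change of 1.65 (SE 0.56, 95% interval 0.41 to 2.89, adjusted p = 0.0370). It was higher in 4 of 4 pairs, with log2 ratios of 2.69, 1.07, 1.97 and 0.443. Under the replicate block the adjusted p was 0.00226. The call was lost without Control replicate 1 (adjusted p = 0.0892) or 4 (0.0737), and without DZNep replicate 1 (0.0705), 2 (0.0657) or 3 (0.133), with log2 fold changes of 1.20 to 1.70 in those fits.

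NTN4 (ENSG00000074527; chr12:95657807-95791189, minus strand), a laminin-like netrin of basement membranes, gave 273, 399, 342 and 249 normalized counts in Control and 222, 159, 254 and 183 in DZNep replicates 1 to 4. The groups met at their edges, with DZNep replicate 3 just above Control replicate 4. Means were 316 ± 68.1 and 205 ± 42.0 (SD, n = 4 each).

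NTN4 had a log2 fold change of -0.65 (SE 0.21, 95% interval -1.13 to -0.18, adjusted p = 0.0328), lower in 4 of 4 pairs and short of 2-fold. Under the replicate block the adjusted p was 0.00616. It rose above 0.05 in 7 of 14 alternative fits, of which 5 left out 1 library (Control replicate 2 or 3, or DZNep replicate 1, 2 or 4). NTN4 and NTN3, both ligands, thus had fitted changes of opposite sign, and NTN1 lay between them.

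**Figure D3:**
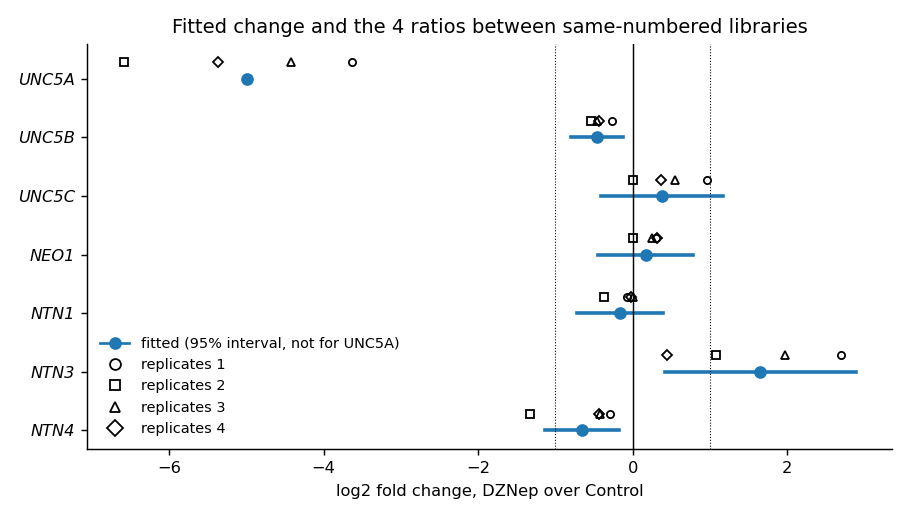
Fitted log2 fold change, DZNep over Control, of the 7 tested genes (blue points, with 95% intervals for all but UNC5A) and the log2 ratios between libraries of the same replicate number (open symbols), with dotted lines at -1 and 1. In this fit without the replicate block, the intervals of UNC5B and NTN4 lie below 0 and that of NTN3 above 0. Those of UNC5C, NEO1 and NTN1 include 0.

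Beside the treatment, the replicate numbers went with these genes. In Control, both replicates 2 and 3 lay above both 1 and 4 for 6 of the 7 tested genes, against 35.2% of all genes tested. In DZNep this held for 4 of the 7, against 27.5%, and UNC5B, UNC5C, NEO1 and NTN1 showed it in both groups, against 20.3%. The mean of replicates 2 and 3 was 2.26-fold that of 1 and 4 for UNC5C in Control and 1.64-fold in DZNep. For NTN3 it was 2.65-fold and 2.23-fold. The mitochondrial share ran the other way, and its part in these values was not tested.

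Levels were compared between genes in CPM per kilobase of exon. In Control the order was UNC5B (15.6 ± 2.20), NEO1 (9.22 ± 3.21), NTN1 (5.73 ± 1.78), NTN4 (1.93 ± 0.412), UNC5C (1.45 ± 0.726), UNC5A (1.04 ± 0.245) and NTN3 (0.177 ± 0.0940), each as mean ± SD of 4 libraries. The ranges of NEO1 and NTN1, of NTN4 and UNC5C, and of UNC5C and UNC5A overlapped, while the other neighbours in this order did not.

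In DZNep the order was UNC5B (11.3 ± 1.24), NEO1 (10.3 ± 2.82), NTN1 (5.13 ± 1.28), UNC5C (1.88 ± 0.601), NTN4 (1.23 ± 0.258), NTN3 (0.571 ± 0.364) and UNC5A (0.0319 ± 0.0232). UNC5A went from place 6 to place 7, and its range there overlapped that of UNC5D, which was below the filter. UNC5B overlapped NEO1, UNC5C overlapped NTN4 and NTN4 overlapped NTN3.

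**Figure D4:**
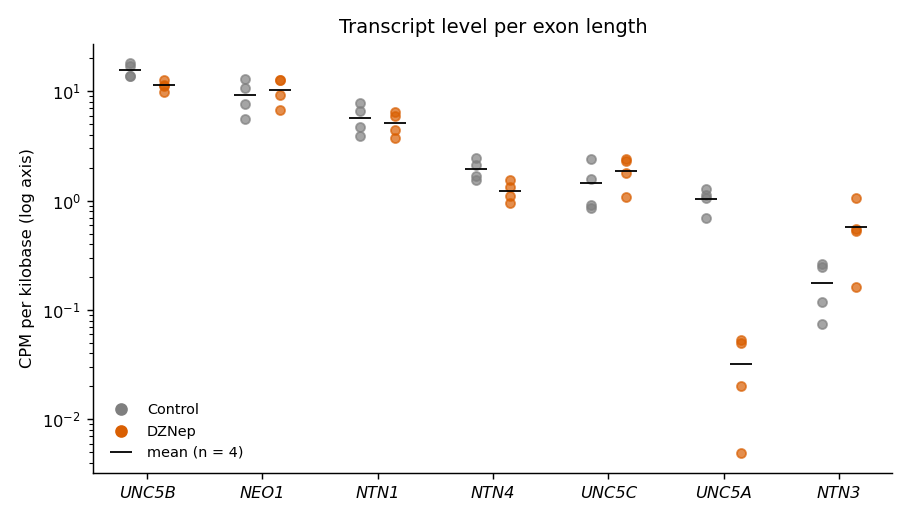
Level in CPM per kilobase of exon (vertical log axis) of the 7 tested genes in the order of their Control means, with 1 point for each Control (grey) and DZNep (orange) library and a dash for the mean. UNC5A moves from a mean of 1.04 to 0.0319, below every other gene plotted.

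Genes that act with netrins and their receptors, and those of neighbouring guidance systems, were taken as 7 lists of 137 genes, of which 129 were tested. In all, 9 were called higher (6.98%) and 18 lower (14.0%), against 10.6% and 13.5% of all genes tested. The median log2 fold change was 0.135 over the lists and -0.026 over all genes.

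Among 14 tested further ligands and relatives of netrin receptors, 1 was higher and 3 were lower. MCAM, an adhesion molecule, rose from 1272 ± 263 to 3191 ± 354 normalized counts (log2 fold change 1.30, adjusted p = 0.000305). FLRT2, a ligand of UNC5 receptors, fell from 412 ± 86.5 to 130 ± 18.4 (-1.69, adjusted p = 0.000144). The adenosine receptor ADORA2B (-1.29) and the membrane-anchored netrin NTNG2 (-1.12) were also lower.

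Of 35 tested intracellular effectors, the kinases, exchange factors and cytoskeletal proteins that act below the receptors, 1 was higher and 3 were lower. ABLIM3, an actin-binding protein, rose from 168 ± 39.6 to 765 ± 140 normalized counts (log2 fold change 2.16). DOCK1, a RAC exchange factor, fell from 2200 ± 690 to 640 ± 164 (-1.81). The microtubule-associated MAP1B (-1.77) was also lower. Of 8 genes of receptor processing, proteases and adaptors that act on DCC and UNC5, edgeR called 0 and DESeq2 called 0, and 0 had an unadjusted p under 0.05, with log2 fold changes from -0.64 to 0.41.

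In the SLIT and ROBO system, which repels axons at the midline, 1 of 9 tested genes was higher and 2 were lower. SLIT3 fell from 712 ± 168 to 108 ± 52.5 normalized counts (log2 fold change -2.75) and ROBO3, a receptor that also interacts with DCC, from 629 ± 237 to 234 ± 78.4 (-1.45). SLIT2 rose from 5712 ± 2313 to 12310 ± 5141 (1.08, adjusted p = 0.0299). The groups overlapped for SLIT2 and ROBO3 but not for SLIT3. SLIT2 and SLIT3, related ligands, thus had fitted changes of opposite sign.

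Among 30 tested semaphorins and plexins, guidance ligands and their receptors, 2 were higher (SEMA3C, 2.48, and SEMA6C, 1.11) and 3 lower (SEMA5B, -2.67, PLXND1, -1.36, and PLXNC1, -1.19), all as log2 fold changes. Among 22 ephrins and EPH receptors, which signal between touching cells, 2 were higher (EPHB3, 1.56, and EPHA1, 1.05) and 3 lower (EPHB1, -2.79, EPHA8, -2.15, and EPHA10, -1.22). EPHA1 was close to the threshold (adjusted p = 0.0499). EPHB1 fell from 182 ± 41.8 to 26.6 ± 7.91 normalized counts while its relative EPHB3 rose from 269 ± 53.0 to 807 ± 83.4.

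Of 11 tested laminins, the basement membrane proteins to which netrins are related, 2 were higher and 4 lower. LAMB3 rose from 13.2 ± 4.45 to 133 ± 36.1 normalized counts (log2 fold change 3.33). LAMA3 (-1.72), LAMA5 (-1.44) and LAMC3 (-1.42) were the lower genes with the largest changes.

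**Figure D5:**
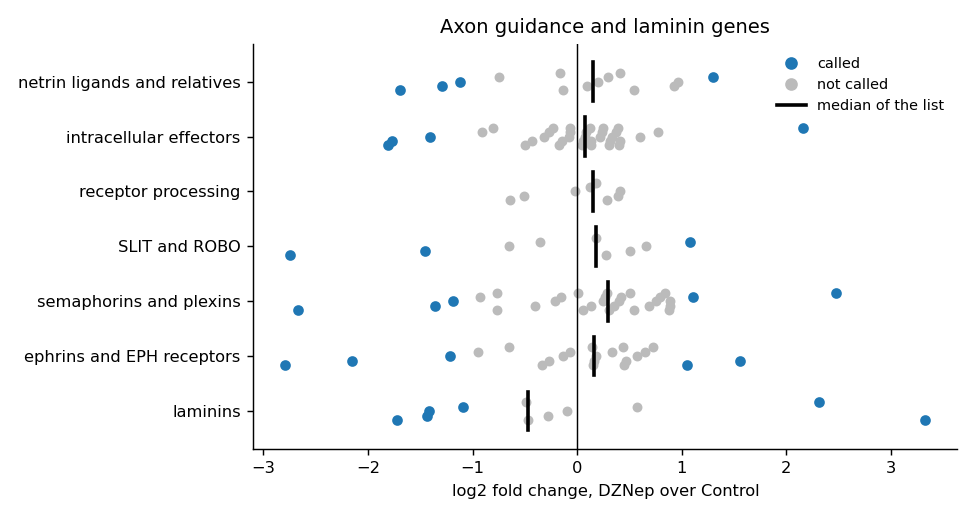
Log2 fold change, DZNep over Control (horizontal axis), of each tested gene of the 7 lists (rows), in blue where called and grey where not, with a bar at the list's median. Medians lie between -0.474 (laminins) and 0.292 (semaphorins and plexins), and called genes stand on both sides in all lists but receptor processing, which has none.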

How the data were processed

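RNAseq was measured in 8 HEK293T libraries, 4 DZNep and 4 Control. The authors deposited raw counts of 57500 Ensembl genes and a signal table of normalized counts of 19118 genes, each a count over its library's size factor. Per the submitters' processing notes and the methods, paired 150 bp reads were trimmed with Trimmomatic 0.36, mapped to GRCh38 with STAR 2.5.2b and counted with featureCounts (Subread 1.5.2). The annotation release and strandedness are not given in the sources used here, so overlapping and antisense genes are uncertain. Symbols, coordinates and exon lengths were taken from GENCODE release 44, which matched 56410 genes.

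Groups were compared with the quasi-likelihood test of edgeR 4.0.16 (R 4.3.3) with TMM normalization on the 19171 genes passing filterByExpr, Benjamini-Hochberg adjustment over all of them, and calls at an adjusted p under 0.05 with a log2 fold change beyond 1 in size. It was tested on simulated data. DESeq2 1.42.0, other normalizations and filters, the replicate block and leaving out each library were alternatives. The study calls the replicates biological. Deviations from the group means correlated between same-numbered libraries at 0.136, 0.492, 0.429 and 0.673. All were over 0.1, the limit set for the replicate block, which was fitted as an alternative. The main fit, with its calls and intervals, ignored the replicate numbers. Some libraries of different number also correlated (Control 1 with DZNep 4 at 0.529, Control 2 with DZNep 3 at 0.398, Control 3 with DZNep 2 at 0.343). Control 1 with DZNep 4 exceeded Control 1 with its own number, so these values do not establish pairing by number. The members and lists were chosen with earlier results of these data known. Named genes are the 10 members, up to 3 called genes per list and direction with the largest changes, genes overlapping a member, the 3 nearest tested genes on each side of UNC5A and the 3 with the highest r. The values of 2 genes the rule names are not reported here. Of 18 overlapping genes, 2 passed the filter. Promoter sequences are RefSeq's (GRCh38.p14). Intervals are at 95%, and limits from 0 reads cover counting error only.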

Additional observations from a re-analysis of the deposited data

How the results depend on the processing

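The 7 tested genes kept their direction in every alternative fit that tested them but 2. NEO1 turned to a log2 fold change of -0.019 without Control replicate 4, and NTN1 to 0.023 without Control replicate 2, neither past the test, and over the fits without 1 library they ranged from -0.019 to 0.366 and from -0.317 to 0.023. The count of 1 gene called higher and 1 called lower was the same with DESeq2, other size factors, library sizes alone, no filter and the replicate block. With at least 10 reads in every library it was 0 higher and 0 lower, because NTN3 and UNC5A were not tested there, and over all genes that filter left 1141 called higher in place of 2041. Leaving out 1 library gave 0 to 1 called higher, as the call of NTN3 was lost in 5 of 8 such fits. UNC5A was the 1 gene called lower in all of them. Its selection on these same libraries made that likely, here and in the other fits, so it is no support for the decrease. As a description, the log2 fold change of UNC5A ranged from -5.35 to -4.60 over the fits without 1 library. Over the guidance lists, the counts ran from 7 to 12 higher and 17 to 21 lower. The replicate block changed no call of a member, though the adjusted p of UNC5C went under 0.05. Beyond these, few reads limit UNC5A in DZNep, NTN3, UNC5D and DCC.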
